A study of Mus musculus with 2 samples.

Results

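MHC class I molecules present peptides from inside the cell to T cells. Each consists of a polymorphic heavy chain, encoded in mouse by genes such as H2-K1 and H2-D1, and the invariant light chain β2-microglobulin, encoded by B2m. The peptides are cut by the proteasome, in which the immunosubunits Psmb8, Psmb9 and Psmb10 can replace the constitutive catalytic subunits, are carried into the endoplasmic reticulum by the transporter Tap1/Tap2 and are loaded onto class I with the help of tapasin, the product of Tapbp. Nlrc5 is a transcriptional coactivator of these genes, which interferons also induce, and embryonic stem (ES) cells are known for low surface class I. The 10 genes just named were examined on 2 Affymetrix MOE430 2.0 arrays of mouse ES cells, 1 of constitutive Eed knockout (Eed KO) cells and 1 of the control cells of that knockout. The Eed protein belongs to the core of Polycomb repressive complex 2, the complex that methylates lysine 27 of histone H3.

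Every probe set (a group of short oligonucleotides read as 1 signal) that the platform annotation assigns to 1 of the 10 gene symbols alone was used, which gave 27 probe sets out of 45101 and all 10 genes out of 18193 on the array. A further 3 probe sets are annotated to H2-K1 or H2-D1 together with other genes, and these were not assigned to any gene. With 1 array per group there is no replicate, so no test between the groups, no standard deviation and no p-value could be had, and each difference is one between these 2 arrays. The labels give no strain, no parent line, no number of clones and no statement on feeder cells, and they do not say how Eed was disrupted. The brightest Eed probe set read 11456 in the Eed KO and 10101 in the control, a log2 ratio of 0.18 (-0.13 once both arrays were given equal medians), and as the disrupted part of the gene is not given this checks nothing. Of 14 ES cell markers all 14 were measured and 12 lay within 2-fold, as did 11860 of all 13794 measured genes. The markers' median log2 ratio was 0.01 (-0.30 on equal array medians). The pluripotency factor genes Klf4 and Nanog read 9409.2 and 14393 in the Eed KO, against 3639.3 and 8006.9 in the control, while Dppa4 and Lin28a had log2 ratios of -1.22 and -0.97.

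Of the 10 genes, 5 had a signal in the Eed KO at least 2-fold above the control, 0 were at least 2-fold lower, and 5 lay within 2-fold. The 5 higher ones were B2m, H2-D1, H2-K1, Psmb9 and Tapbp, that is the light chain, both heavy chains, 1 immunosubunit and tapasin. Tap2, Psmb8, Tap1 and Nlrc5 had ratios above 1 that stayed under 2-fold, and Psmb10 had a ratio below 1. Among all 13794 genes with a signal above the floor on at least 1 array, 10.8% were higher by 2-fold or more and 3.27% lower by as much. The floor was a signal of 61.3, below which 40% of all non-control signals lay. Lower signals were set to 61.3 before dividing, and a ratio with 1 such signal is a bound, written as "at least". All 10 genes passed it on at least 1 array, but Nlrc5 passed it through the Eed KO array alone, which fixed its direction. The same held for 1497 of the 13794 measured genes, while 482 passed it through the control array alone. The 40th percentile of the signals was 68.8 on the Eed KO array and 54.7 on the control array. Among genes above the floor on both arrays, 9.89% were higher by 2-fold or more and 3.39% lower by as much. The other 9 members, with the 5 higher ones among them, are of this kind. In RNA from a whole culture a change in the number of cells of a type and a change in RNA per cell cannot be told apart.

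The median log2 ratio of the 10 genes was 0.91, against 0.12 for all measured genes. Scaling the arrays to the same median moved that of all measured genes to -0.16 and the members' median to 0.60, so the distance between them was 0.79 as deposited and 0.76 with that scaling. Across the other 9 ways of scaling, flooring or summarising the signals that distance was between 0.60, with a pseudocount, and 0.97, with a higher floor that left 7 of the genes measured. The members' count of 2-fold differences was less stable than this distance, since Psmb9 and Tapbp lay close to 2-fold, and only B2m and H2-D1 stayed at least 2-fold higher in all 10 alternatives of this kind.

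**Figure D1:**
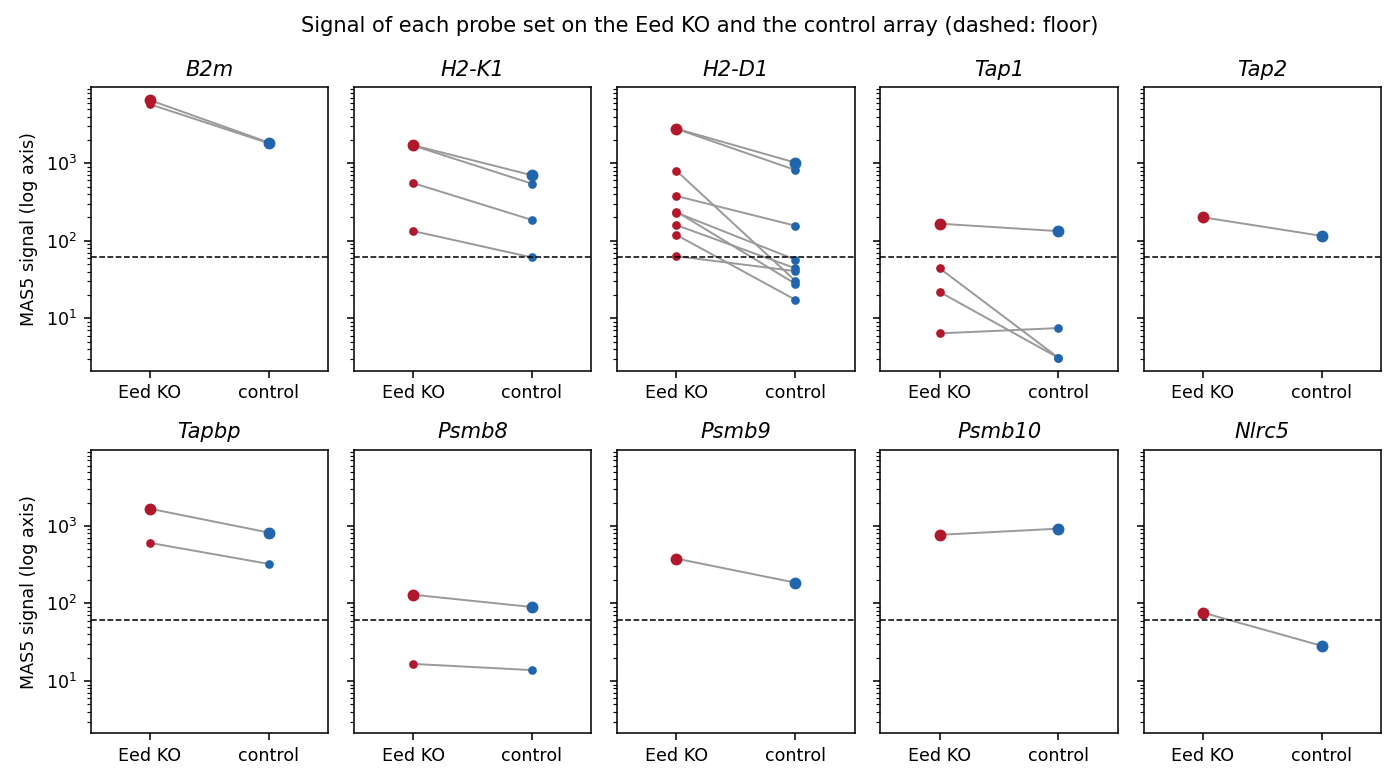
MAS5 signal (log axis) of each of the 27 probe sets on the Eed KO array (red, left) and the control array (blue, right), with lines joining the same probe set, larger points for the brightest probe set of a gene, and a dashed line at the floor of 61.3. Both B2m, all 4 H2-K1 and all 9 H2-D1 probe sets had the higher signal on the Eed KO array, while the single Psmb10 probe set had the lower one.

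The light chain gene B2m, on chromosome 2, showed the largest ratio of the 10 genes on its brightest probe set. That probe set read 6521.5 in the Eed KO and 1852.7 in the control, a 3.52-fold difference (log2 ratio 1.82). The other B2m probe set read 5776.3 in the Eed KO and 1813.3 in the control, 3.19-fold higher. Both B2m probe sets therefore gave similar ratios at high signal. Judged by how far the 2 brightest probe sets of a gene differed across the array, a log2 ratio at signals above 2048 had an SD of 0.176. This SD covers only probe set and isoform spread on the same 2 arrays, and no error common to a whole array. Of all measured genes, 97.6% had a lower log2 ratio than B2m.

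H2-D1, on chromosome 17, encodes the heavy chain of the classical class I molecule D. Its brightest probe set read 2791.6 in the Eed KO and 1021.0 in the control, 2.73-fold higher (log2 ratio 1.45). The second brightest read 2777.2 in the Eed KO and 819.9 in the control, 3.39-fold higher. Another, at 378.6 in the Eed KO and 156.7 in the control, was 2.42-fold higher. These 3 were the only H2-D1 probe sets above the floor on both arrays, and all 3 passed 2-fold.

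The other 6 H2-D1 probe sets passed the floor through the Eed KO array alone, which fixed their direction. More genes of the array passed it this way (1497) than through the control array alone (482). The largest bound among the 6 came from a probe set at 801.5 in the Eed KO and 30.6 in the control, at least 13.1-fold higher. Others read 231.3, 238.3 and 159.5 in the Eed KO, against 57.2, 28.0 and 44.3 in the control, and were at least 3.77-, 3.89- and 2.60-fold higher. The remaining 2, at 119.0 and 63.4 in the Eed KO and 17.4 and 40.7 in the control, did not reach 2-fold over the floor. H2 genes are highly polymorphic between strains, and 7 of the 9 H2-D1 probe sets carry the suffix _x_at, which marks probes that also match other transcripts. The 3 measured H2-D1 ratios thus lay between 2.42- and 3.39-fold and the 6 bounds between 1.03- and 13.1-fold, and the probe sets cannot be taken as independent readings of 1 gene.

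H2-K1 encodes the classical heavy chain K. Its brightest probe set read 1710.1 in the Eed KO and 700.8 in the control, 2.44-fold higher (log2 ratio 1.29, or 0.98 on equal array medians). The other 2 above the floor on both arrays read 1693.7 and 555.2 in the Eed KO, against 545.6 and 186.0 in the control, and were 3.10- and 2.98-fold higher. The last read 133.8 in the Eed KO and 61.1, just under the floor, in the control, at least 2.18-fold higher. All 4 H2-K1 probe sets are of the _x_at kind, so that part of the H2-K1 signal may come from other class I transcripts, and without such probe sets H2-K1 has no value. Of the 13 probe sets for both heavy chains, 6 were above the floor on both arrays, and all 6 were at least 2-fold higher with a median log2 ratio of 1.51. Among the 21064 probe sets of the array with 1 symbol and a signal above the floor on both, 8.92% were higher by 2-fold or more and 3.48% lower by as much. The other 7 passed through the Eed KO array alone, and 5 of them had bounds of at least 2-fold. With such probe sets included, 9.8% of 25167 were higher and 3.47% lower.

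The promoter windows of B2m, H2-K1 and H2-D1, whose brightest probe sets had the 3 largest ratios of the 10 genes, are shown together with that of Tap1, whose ratio was under 2-fold. They run from 250 bases before to 50 after an annotated start site and are taken from RefSeq, assembly GRCm38.p6, where 8 of the 10 genes had a window. Class I promoters are known to carry a binding site for NF-κB, an element bound by interferon regulatory factors (IRF), and an SXY module whose X2 part resembles a cyclic AMP response element and whose Y part is an inverted CCAAT box, the module through which Nlrc5 acts. Capitals mark the matches, on either strand, to the NF-κB consensus, its palindromic form GGGGATTCCCC, the IRF core AANNGAAA, the response element core TGACG and the inverted CCAAT box ATTGG. These motifs were chosen after the sequences and the ratios had been seen, and the palindrome overlaps the NF-κB consensus.
H2-K1, chr17:34000298-34000597, minus strand: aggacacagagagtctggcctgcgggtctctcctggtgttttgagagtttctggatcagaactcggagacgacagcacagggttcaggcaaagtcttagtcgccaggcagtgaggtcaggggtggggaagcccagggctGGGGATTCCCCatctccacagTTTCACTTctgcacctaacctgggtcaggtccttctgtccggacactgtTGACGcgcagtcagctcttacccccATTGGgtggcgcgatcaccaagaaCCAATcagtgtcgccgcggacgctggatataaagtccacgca
H2-D1, chr17:35262844-35263143, plus strand: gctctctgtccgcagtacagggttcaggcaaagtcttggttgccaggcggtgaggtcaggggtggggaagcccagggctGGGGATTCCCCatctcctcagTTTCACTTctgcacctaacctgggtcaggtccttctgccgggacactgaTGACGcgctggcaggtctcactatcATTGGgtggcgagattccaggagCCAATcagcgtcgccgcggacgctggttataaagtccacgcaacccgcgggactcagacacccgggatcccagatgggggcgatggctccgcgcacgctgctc
B2m, chr2:122147437-122147736, plus strand: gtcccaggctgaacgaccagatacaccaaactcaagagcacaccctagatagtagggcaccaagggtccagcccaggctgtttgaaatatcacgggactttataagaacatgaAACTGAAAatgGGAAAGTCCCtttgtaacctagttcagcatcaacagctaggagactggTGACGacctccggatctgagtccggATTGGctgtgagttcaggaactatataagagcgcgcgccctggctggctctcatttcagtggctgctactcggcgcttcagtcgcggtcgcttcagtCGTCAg
Tap1, chr17:34187306-34187605, plus strand: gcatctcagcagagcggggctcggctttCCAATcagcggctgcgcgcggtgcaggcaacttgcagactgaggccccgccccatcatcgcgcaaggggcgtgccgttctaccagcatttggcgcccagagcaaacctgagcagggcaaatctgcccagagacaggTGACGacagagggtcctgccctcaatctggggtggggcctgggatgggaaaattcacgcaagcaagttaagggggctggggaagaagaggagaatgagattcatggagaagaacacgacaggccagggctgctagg

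In H2-K1 and H2-D1 the capitals run in the same order, with the palindrome first, then the IRF core, TGACG and 2 CCAAT boxes. The palindrome lies 111 bases before the H2-K1 start and 171 bases before the H2-D1 start. When both windows are laid over each other at the palindrome without gaps, 176 of 240 bases (73.3%) are identical. B2m has the IRF core first, 137 bases before its start, followed closely by the NF-κB consensus, a TGACG and a CCAAT box.

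Of all 32851 promoter windows in the table, 0.0304% hold the palindrome (10 windows, 3 of them the windows of H2-K1, which has 2, and H2-D1). The NF-κB consensus is in 8.46% of all windows, and among the 10 genes it was found for B2m, H2-D1 and H2-K1 only, of the 8 with a window. The IRF core is in 23.9% of all windows and was found for the same 3 genes. TGACG is in 20.8% and ATTGG in 37.4% of all windows, and they were found for 5 and 6 of the 8 genes. Tap1 and Psmb9 lie head to head with starts 226 bases apart, so that their windows share 275 bases and hold the same TGACG and CCAAT box. The CpG count was 14 for B2m, 14 for the H2-K1 window shown, 19 for H2-D1 and 15 for Tap1, against a median of 7 over all windows, and Psmb10 had 3. A match is a description of the letters in the window and shows neither binding nor use.

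Tapbp, the gene of tapasin, which holds the transporter and empty class I together, was 2.03-fold higher on its brightest probe set, at 1664.5 in the Eed KO and 820.6 in the control. Its other probe set read 603.6 in the Eed KO and 323.4 in the control, 1.87-fold higher. The log2 ratio of 1.02 was at least 1 in 5 of the 10 alternatives and lowest, at 0.71, on equal array medians. Both Tapbp probe sets thus gave a difference near 2-fold.

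The transporter subunit genes had smaller ratios at lower signal. Tap2 has 1 probe set, which read 201.2 in the Eed KO and 115.8 in the control, 1.74-fold higher (log2 ratio 0.80). Tap1 read 166.4 in the Eed KO and 133.3 in the control on its only measured probe set, 1.25-fold higher (log2 ratio 0.32, but 0.012 on equal array medians). The other 3 Tap1 probe sets were under the floor on both arrays, with 44.2, 21.9 and 6.4 in the Eed KO and 3.1, 3.1 and 7.5 in the control. Neither transporter gene reached 2-fold in any of the alternatives that measured it. Judged as for B2m, a log2 ratio at signals between 128 and 256 had an SD of 0.414.

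The 3 immunosubunits had ratios on both sides of 1. Psmb9, which encodes the β1i subunit, read 378.5 in the Eed KO and 185.4 in the control, 2.04-fold higher (log2 ratio 1.03, at least 1 in 4 of the 10 alternatives and 0.72 at the lowest). Psmb8, which encodes β5i, read 129.5 in the Eed KO and 89.9 in the control, 1.44-fold higher, while the other Psmb8 probe set, at 16.6 in the Eed KO and 13.8 in the control, did not pass the floor. Psmb10, which encodes β2i and lies on chromosome 8, read 767.3 in the Eed KO and 921.3 in the control, a log2 ratio of -0.26, and stayed below 0 in all 10 alternatives. Psmb9 and Tap1, which share a promoter region, thus had log2 ratios of 1.03 and 0.32.

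Nlrc5, the coactivator, was near the limit of detection. Its single probe set read 76.1 in the Eed KO and 28.4, under the floor, in the control, at least 1.24-fold higher. A floor at the 25th percentile gave Nlrc5 a log2 ratio of 1.36, and one at the 60th percentile left it unmeasured. Its difference is thus set by the choice of floor.

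**Figure D2:**
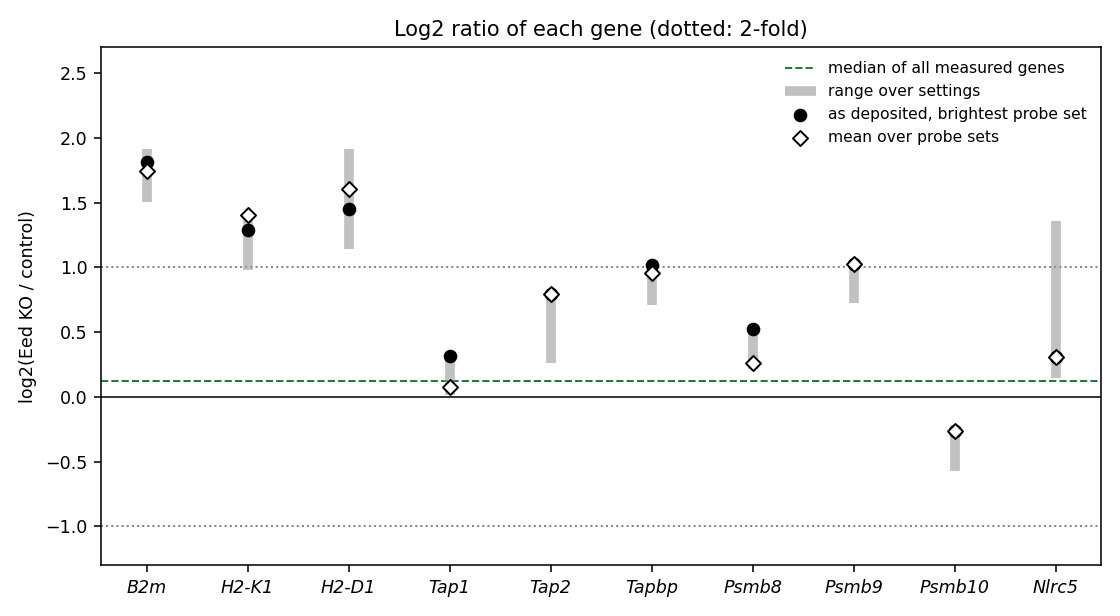
Log2 ratio of Eed KO over control for each of the 10 genes, as deposited on the brightest probe set (filled circles), as the mean over probe sets (diamonds) and as the range over all settings tried (grey bars). Dotted lines mark 2-fold and the green dashed line the median of all measured genes (0.12). B2m and H2-D1 stay above 2-fold over their whole range, and Psmb10 stays below 0. The top of the H2-D1 range (1.92) is a bound from a probe set under the floor in the control.

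Other class I genes had ratios above 1 but mostly under 2-fold. Of 31 further class I and class I-like genes, 14 had a probe set of their own, 10 were measured, all 10 had a ratio above 1 (3 of them fixed by the floor), and 1 reached 2-fold, with a median log2 ratio of 0.59. The 1 was H2-M3, which encodes a heavy chain that presents formylated peptides, at 355.4 in the Eed KO and 162.8 in the control, 2.18-fold higher (log2 ratio 0.82 on equal array medians). The iron regulator gene Hfe read 127.8 in the Eed KO and 65.6 in the control, and H2-Bl read 209.1 in the Eed KO and 109.0 in the control, 1.95- and 1.92-fold higher. Mr1, whose product presents vitamin metabolites, was 1.57-fold higher. A share of 1 in 10 is close to the 10.8% of all measured genes. Of these 13794 genes, 8126 had a ratio above 1. The class I list's median of 0.59 was 0.38 after quantile normalization. It was 0.31 under a 60th-percentile floor and 0.72 under a 25th-percentile floor.

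The general machinery that class I shares with other proteins lay within 2-fold throughout. Of 11 measured genes for loading chaperones and peptidases, 0 were 2-fold higher and 0 lower, with a median log2 ratio of -0.07. Of all 13794 measured genes 10.8% were higher, 3.27% lower and 11860 within 2-fold, so counts of 0 in short lists are not far from these shares. Calr and Canx, the lectin chaperones calreticulin and calnexin, had log2 ratios of -0.36 and 0.06 (Canx -0.24 on equal array medians). Pdia3, the disulfide isomerase of the loading complex, had -0.43 on its brightest probe set and 0.24 as the mean over both probe sets. Thop1, a cytosolic peptidase, had -0.53, and Tapbpl, a relative of tapasin, 0.28 (-0.04 after quantile normalization).

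The same held for the proteasome. The constitutive catalytic subunits that the immunosubunits replace, Psmb5, Psmb6 and Psmb7, had log2 ratios of -0.12, 0.08 and -0.03, and the sign of each turned under another scaling. Psmb7 read 18578 in the Eed KO and 19022 in the control, and the activator subunit Psme1, which interferon also induces, read 2705.6 in the Eed KO and 3577.6 in the control. Psme3, a nuclear activator subunit, had a log2 ratio of -0.24. Pomp, the assembly factor, read 6557.6 in the Eed KO and 10480 in the control (log2 ratio -0.68). Of 8 measured partner genes 0 differed by 2-fold, and their median log2 ratio was -0.08. Most genes of the array did not differ by 2-fold either (11860 of 13794 measured).

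The 16 measured transcription regulators of class I genes had a median log2 ratio of 0.07. Of these, 1 was at least 2-fold higher (6.25%, against 10.8% of all measured genes) and 0 lower. The 1 was Rfxank, a subunit of the RFX complex that binds the SXY module, at 560.3 in the Eed KO and 180.8 in the control (3.10-fold). Its other 2 probe sets had log2 ratios of -0.27 and 0.39, and the gene's log2 ratio was -0.27 without probe sets shared with other transcripts. Rfx5, another subunit, read 253.7 in the Eed KO and 335.5 in the control, and Irf1, an activator that binds the IRF core, 994.2 in the Eed KO and 1289.9 in the control, with log2 ratios of -0.40 and -0.38. Irf8, Prdm1 and Ciita had log2 ratios of 0.74, 0.58 and -0.53, at low signal for Irf8 and Ciita.

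Interferon receptors and their signalling genes were measured for 17 of 19 genes, of which 3 were at least 2-fold higher, 0 lower and 15 above a ratio of 1 (median log2 ratio 0.40). Of all 13794 measured genes, 10.8% were at least 2-fold higher, 3.27% were as much lower and 8126 had a ratio above 1. The floor was passed through the Eed KO array alone by 2 of the 17. The count of 3 was 1 after quantile normalization, on equal array medians, on the poly-A spikes and with a pseudocount, and the median was 0.090 on equal array medians. Il10rb, a receptor chain for interferon lambda and interleukin 10, read 360.6 in the Eed KO and 106.6 in the control (3.38-fold, though a further Il10rb probe set, at 27.9 in both, did not pass the floor). Jak2, a kinase of the interferon gamma receptor, was 2.29- and 2.08-fold higher on its 2 probe sets (log2 ratio 0.89 on equal array medians), and Ifnlr1, the other lambda receptor chain, 2.25-fold. Jak1 had a log2 ratio of 0.98. The interferon gamma receptor genes Ifngr1 and Ifngr2 were 1.76- and 1.45-fold higher. Of the interferon genes only Ifng and Ifnb1 were examined, and they are named here after their values were seen. Ifng read 4.2 in the Eed KO and 4.5 in the control, and Ifnb1 read 72.0 in the Eed KO and 32.4 in the control, with only the Eed KO signal of Ifnb1 above the floor.

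Interferon-inducible genes other than the 10 went in both directions. Of 44 measured, 7 were at least 2-fold higher (15.9%, against 10.8% of all measured genes) and 1 lower. A ratio above 1 was found for 28 and one below 1 for 16, against 8126 and 5666 of all 13794 measured genes. The floor fixed the direction of 9 of the 44, with 8 of these passing it through the Eed KO array alone. The higher ones included Xaf1, a pro-apoptotic factor, at 2381.7 in the Eed KO and 400.8 in the control (5.94-fold, and 5.49-fold on its other probe set), Lgals3bp at 518.6 in the Eed KO and under the floor in the control (at least 8.46-fold) and the protease gene Usp18 at least 2.86-fold. The lower one was Ifitm1, a membrane protein that restricts virus entry, at 2540.6 in the Eed KO and 10184 in the control (4.01-fold lower). Ifitm3 and Bst2 read 6021.2 and 650.8 in the Eed KO, against 11195 and 1093.5 in the control, and were named after their values were seen. Igtp, Cxcl10, Oasl1 and Oas1a, also named after their values were seen, were 2.17-, 2.16-, 2.12- and 2.06-fold higher. The list's median of 0.35 was 0.047 on equal array medians and 0.007 under a 60th-percentile floor, and its count of 2-fold higher genes was 3 after quantile normalization.

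Of 13 class II genes, which professional antigen-presenting cells use, 9 were measured and 2 were at least 2-fold higher (22.2%, against 10.8% of all measured genes). The median log2 ratio of the 9 was 0.64, and 4 of them passed the floor through the Eed KO array alone. H2-Eb1 read 446.6 in the Eed KO and 132.2 in the control (3.38-fold), and H2-Ab1 232.5 in the Eed KO and 70.3 in the control (3.31-fold, but 0.47 on the log2 scale under a 60th-percentile floor). This H2-Ab1 probe set is of the _s_at kind, which is shared with other transcripts. Another read 106.5 in the Eed KO and 58.6, under the floor, in the control, at least 1.74-fold higher, and the last did not pass the floor. The invariant chain gene Cd74 was 1.72-fold and H2-DMa, which edits class II peptides, 1.70-fold higher, while the class II coactivator gene Ciita read 62.8 in the Eed KO and 90.4 in the control. Of 6 measured genes for ligands of natural killer and costimulatory receptors, 0 differed by 2-fold (nor did 11860 of all 13794 measured genes). The nearest was Cd80 at 129.4 in the Eed KO and 67.2 in the control (1.93-fold), and Nectin2 and Ulbp1 had log2 ratios of -0.57 and 0.45. Pdcd1lg2, under the floor in the control, had a log2 ratio of at least 0.59 (1.63 under the 25th-percentile floor).

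**Figure D3:**
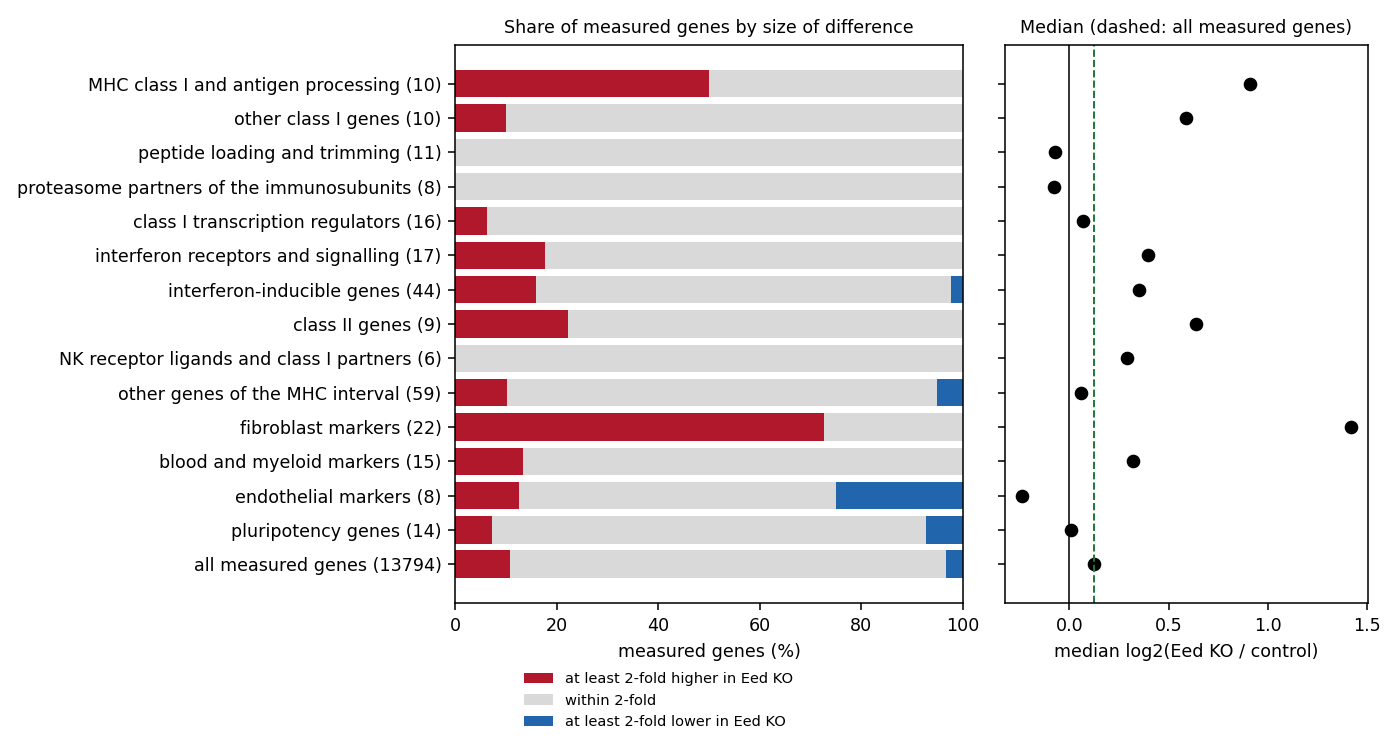
Left, the share of measured genes of each list drawn, with the number of measured genes in brackets. Red marks genes 2-fold or more higher in the Eed KO, grey those within 2-fold and blue those at least 2-fold lower. Right, the median log2 ratio of Eed KO over control, with all measured genes as a dashed line. The 10 class I and antigen processing genes had 5 higher and a median of 0.91. The fibroblast markers had 16 of 22 and 1.42, and the loading and proteasome partner genes 0 higher. Whether drawn or not, the trophectoderm markers had 6 of 11 higher and the primitive endoderm markers 7 of 14. The blood and myeloid markers had 2 of 15 higher and the endothelial markers 1 of 8, against 10.8% of all measured genes.

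Markers of another cell type were higher in the same array. Of 25 fibroblast markers 24 were on the array and 22 measured, 16 of them at least 2-fold higher and all 22 above a ratio of 1, and the signals of the 24 summed to 66166 in the Eed KO and 31617 in the control (median log2 ratio 1.42). The fibroblast markers Lum and Fap, named after their values were seen, were under the floor on both arrays, and Prrx1, Pdgfrb, Dcn and Col6a1 were 6.84-, 4.92-, 4.76- and 3.69-fold higher. Fibroblasts are known to express class I, and the part of these markers in the class I values was not tested. Of 12 trophectoderm markers 11 were measured and 6 at least 2-fold higher, and of 14 primitive endoderm markers 14 and 7. Their signals summed to 17548 and 21158 in the Eed KO, against 9233 and 12167 in the control, and their part in the class I values was not tested either. The primitive endoderm list shares 2 genes with the fibroblast list, Sparc and Pdgfra, so these marker sums overlap. Sparc, named after its values were seen, read 9189.2 in the Eed KO and 4653.9 in the control. The trophectoderm genes Hand1, Krt19, Plac1 and Eomes were 4.48-, 3.56-, 2.84- and 2.49-fold higher. The endoderm genes Sox17, Sox7, Pdgfra and Gata6 were 4.02-, 3.87-, 2.80- and 2.80-fold higher.

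Blood cells are known for high class I and class II. Of 20 blood and myeloid markers 19 were on the array and 15 measured, 11 with a ratio above 1 (against 8126 of all 13794 measured genes). At least 2-fold higher were 2 of these, Cd79b and Lcp1 (2.50- and 2.40-fold). That share of 13.3% was close to the 10.8% of all measured genes. The signals of the blood markers summed to 3807.2 in the Eed KO and 3305.2 in the control. The myeloid regulator gene Spi1 was 1.95-fold higher and Coro1a 1.82-fold lower. The direction of 6 of the 15 was fixed by the floor, and 5 of these passed it through the Eed KO array alone, namely Cd14 (105.3 in the Eed KO and 11.5 in the control), Lyz2 (105.0 in the Eed KO and 47.4 in the control), Tyrobp, Cd3g and Cybb. Under the 25th-percentile floor 6 markers were at least 2-fold higher and the median log2 ratio, 0.32 as deposited, was 0.81. Under the 60th-percentile floor 0 were, and the median was 0.080 on equal array medians. The remaining markers of the 19, Ptprc, Itgam, Cd3e and Fcer1g, were under the floor on both arrays. These 9 markers were named after their values were seen, and the part of the blood markers in the class I values was not tested. Of 8 measured endothelial markers 1 was higher (Flt1, 12.5% against 10.8% of all measured genes) and 2 lower (Cldn5 and Esam, against 3.27%). Tek was 1.75-fold lower, and the summed signals of the endothelial list were 2821.7 in the Eed KO and 2606.7 in the control.

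The members on chromosome 17 lie in the MHC, and most of their neighbours lay within 2-fold, as did most measured genes of the array. The RefSeq gene table places 75 other genes of the array between Tapbp and H2-D1, of which 59 were measured, 6 at least 2-fold higher and 3 lower, with a median log2 ratio of 0.06. Of the 7 members in the same stretch, 4 were at least 2-fold higher. Besides both class II genes, the higher neighbours were Ly6g6e, at 1845.8 in the Eed KO and 364.0 in the control (5.07-fold), Sapcd1 (3.18-fold), Prrt1 and Ddah2. Prrt1, Ddah2 and Ring1 were named after their values were seen. Prrt1 was under the floor in the control, and its ratio is a bound of at least 2.4-fold. Ring1, the Polycomb gene that follows H2-K1 in the order, read 257.6 in the Eed KO and 277.5 in the control.

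**Figure D4:**
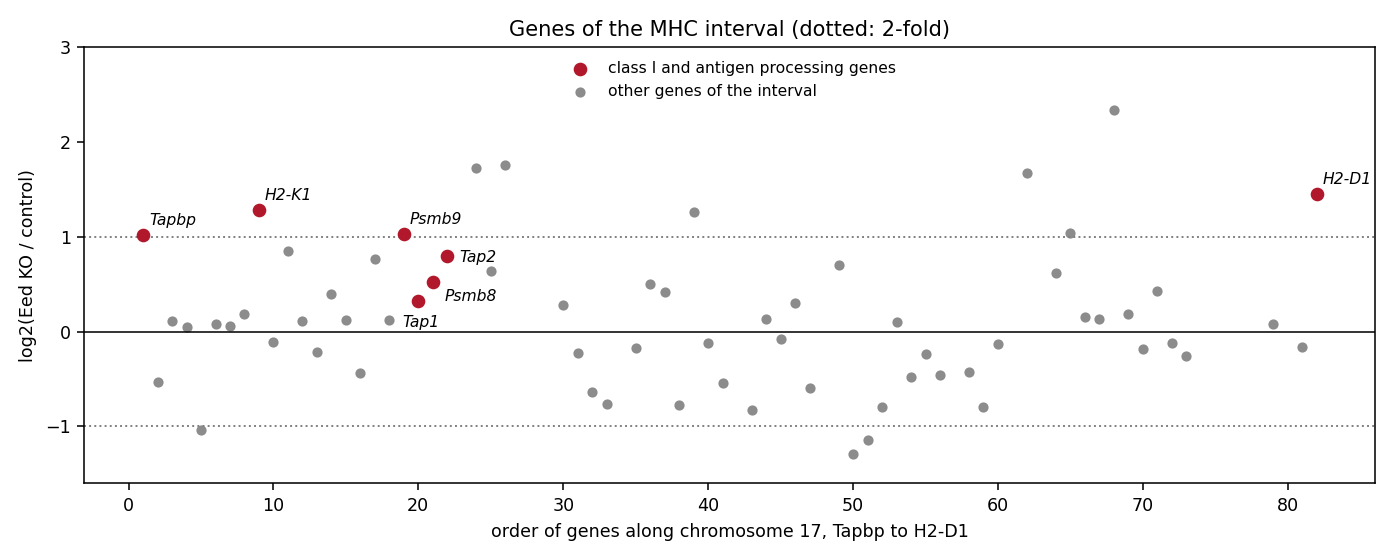
Log2 ratio of Eed KO over control for each measured gene between Tapbp and H2-D1, in their order along chromosome 17, with the class I and antigen processing genes in red, other genes in grey and dotted lines at 2-fold. The 7 red points lie between 0.32 (Tap1) and 1.45 (H2-D1), while the grey points lie on both sides of 0.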

How the data were processed

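Total RNA was labelled with biotin and hybridized to MOE430 2.0 arrays, 1 per group, and groups were taken from the sample titles. The tool named in the submitters' processing notes is MAS5, with no version. The deposited values are linear intensities per probe set, with no detection call, and the mean after dropping 2% at each end was 500.0 on both arrays. Names came from the platform annotation (34945 with 1 symbol, 932 with several and not named, 9160 without, 64 controls), and RefSeq gene IDs changed 0 symbols.

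From these, log2 ratios of Eed KO over control were computed after a floor at the 40th percentile (61.3), with each gene read from the probe set of the highest mean log2 signal, and differences of at least 2-fold were counted. No test was made, as there is 1 array per group and their number limits the precision. The members and all lists were chosen with earlier results of these data known. The text names every member, the 4 genes of each list with the largest absolute ratio above the floor on at least 1 array, and Irf1, Rfx5, Ifngr1, Ifngr2, Psmb5, Psmb6, Psmb7, Calr, Canx, Pdia3 and Eed whatever their values, and others are said to be named after their values were seen. One further item is not reported here. With 2 arrays no gene could be chosen for a like pattern.

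Alternatives were quantile normalization, the same median, removal of a lowess trend (span 0.3), scaling on the hybridization (median ratio 1.05 over 18 probe sets) or poly-A spikes (1.15 over 24), lower (25th percentile) and higher (60th percentile) floors, a pseudocount equal to the floor, the mean over probe sets, leaving out _x_at and _s_at probe sets, and calls at 1.5- and 3-fold. The computation was tested on simulated data. Python 3.11.15, pandas 2.3.3 and statsmodels 0.14.6 were used.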

Additional observations from a re-analysis of the deposited data

Results flagged for a closer look

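One probe set outside the main measurement, annotated to both H2-K1 and H2-D1 and therefore assigned to neither, gave a signal above the floor that was higher than in the control. It read 583.3 in the Eed KO and 120.1 in the control, 4.86-fold higher (log2 ratio 2.28). The other 2 probe sets annotated to a heavy chain gene together with other genes read 98.4 and 40.4 in the Eed KO, against 114.2 and 7.5 in the control, the last pair under the floor on both arrays.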

How the results depend on the processing

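No paired analysis was possible because there is 1 array per group. The count of members at least 2-fold higher, 5 as deposited, was 2 on equal array medians, 3 with scaling on the hybridization spikes, on the poly-A spikes or with a pseudocount, and 1 at 3-fold (B2m). The count of 2-fold lower members was 0 in all 12 alternatives. Of the 23 measured member probe sets, 15 were at least 2-fold higher, against 9.8% of all measured probe sets with 1 symbol. H2-K1 and H2-D1 gave 11 of these 15. Among the 15 member probe sets above the floor on both arrays, 10 were at least 2-fold higher, against 8.92%. The count over all measured member probe sets was 5 without probe sets shared with other transcripts and 7 at 3-fold. The members' median of 0.91 was 0.66 after quantile normalization, 0.60 on equal medians, 0.69 without the lowess trend, 0.71 on the poly-A spikes, 1.02 and 1.03 under the 25th- and 60th-percentile floors, 0.72 with a pseudocount and 0.80 without shared probe sets.

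Of all measured genes, 1483 were higher and 451 lower as deposited, 873 and 1034 on equal medians, 2244 and 684 under the 25th-percentile floor, 3210 and 1413 at 1.5-fold, and 487 and 102 at 3-fold. The higher ones were 806 under the 60th-percentile floor and the lower ones 766 on the poly-A spikes. The median of all measured genes was -0.16 on equal medians and -0.059 on the poly-A spikes.

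The MHC neighbours, 6 higher and 3 lower, were 10 higher under the 25th-percentile floor, and 3 higher and 1 lower under the 60th. They had 5 lower after quantile normalization and without the lowess trend, 8 on equal medians and 1 with a pseudocount. Their median turned to -0.12 (quantile), -0.25 (equal medians), -0.094 (lowess), -0.017 (hybridization spikes), -0.12 (poly-A), -0.13 (60th percentile floor), -0.073 (mean over probe sets) and -0.11 (without shared probe sets). The transcription regulators' median turned to -0.02 (quantile), -0.24 (equal medians), -0.13 (poly-A) and -0.059 (without shared probe sets, where Rfxank was -0.27). The median of the natural killer ligands turned to -0.019 on equal medians, that of the pluripotency genes to -0.30 (equal medians) and -0.19 (poly-A), and that of the loading genes to 0.18 as the mean over probe sets. The cause of these shifts was not tested. Signals near the floor limit Nlrc5, Tap1, Tap2 and Psmb8 most.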

Other observations

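Among the MHC neighbours that were 2-fold lower, all chosen after their values were seen, Ehmt2, which encodes the H3K9 methyltransferase G9a, read 2062.2 in the Eed KO and 4568.3 in the control (2.22-fold lower). Zbtb12 read 130.0 in the Eed KO and 317.6 in the control, and B3galt4, which encodes a galactosyltransferase, 135.2 in the Eed KO and 276.6 in the control.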
